A study of Mus musculus with 20 samples.

Results

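The genes described are the mouse amyloid precursor protein gene App, its paralogues Aplp1 and Aplp2, 5 genes for the enzymes that cut their products (Psen2, Ncstn, Aph1a, Bace1 and Adam10), and Thy1, the gene whose promoter drives the 5xFAD transgenes. They are the 9 rows of the merged count table with these gene names, out of 43346 genes, and all 9 were among the 19623 genes that passed the filter on low counts. They were followed by bulk RNA sequencing of the cerebral cortex in 20 libraries of 4 groups of 5. The study asked how a missense knockin in the lipid transporter gene Abca7, which gives the A693S change, alters the cortex of 5xFAD mice.

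The groups were 10-month KI mice (Abca7 A693S knockin on 5xFAD+/-), 10-month control mice (Abca7WT/WT on 5xFAD+/-), 3-month KI mice and 3-month control mice. The labels do not say whether the knockin was heterozygous or homozygous. Every group carried the 5xFAD transgenes, which include human APP with familial Alzheimer disease mutations under the Thy1 promoter, so no group without plaque-forming transgenes was compared. The protocol describes male littermates, but the labels do not state that each library came from a separate animal, so the p-values measure the spread between these libraries.

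APP is a membrane protein that is cut in turn by secretases. Cleavage by BACE1, the β-secretase, followed by γ-secretase releases amyloid-β, whereas cleavage by ADAM10, the main neuronal α-secretase, cuts within the amyloid-β stretch and releases the soluble ectodomain. γ-Secretase is a membrane complex of a presenilin, nicastrin, APH1 and PEN2, and it also cuts APLP1, APLP2, NOTCH and many other proteins.

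A feature shared by the 3 precursors can be read in the coding sequence, and their tails are shown for it. The catalytic motifs of Psen2 and Bace1 are shown as parts of these enzymes and are not a feature of the precursor family. The sequences come from the GENCODE M21 annotation of GRCm38 and are written 5′ to 3′ on the coding strand, with the codons of the motif in capitals. In the precursors the capitals mark the asparagine-proline-threonine-tyrosine codons of the cytoplasmic tail, the signal bound by adaptor proteins of the Apbb and Apba families.
App, chr16:84955334-84955402, minus strand, exon 18 of 18: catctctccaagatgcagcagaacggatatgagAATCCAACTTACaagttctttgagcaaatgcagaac
Aplp1, chr7:30435293-30435361, minus strand, exon 17 of 17: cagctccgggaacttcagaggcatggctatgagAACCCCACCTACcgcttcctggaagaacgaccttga
Aplp2, chr9:31150874-31150942, minus strand, exon 17 of 17: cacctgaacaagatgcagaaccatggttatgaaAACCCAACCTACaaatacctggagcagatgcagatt

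Over these 69 bases App and Aplp2 shared 50 (72.5%), Aplp1 and Aplp2 shared 40 (58%) and App and Aplp1 shared 38 (55.1%). The longest run of identical bases anywhere in the coding sequences was 24 bases for App and Aplp2, 14 for Aplp1 and Aplp2 and 13 for App and Aplp1. The motif codons occurred in frame within the last 75 coding bases of 6 of 21617 annotated coding sequences (0.0278%), which include these 3.
Psen2 encodes a presenilin and carries the glycine-leucine-glycine-aspartate motif with a catalytic aspartate of γ-secretase.
Psen2, chr1:180228912-180228961, minus strand, exon 10 of 11: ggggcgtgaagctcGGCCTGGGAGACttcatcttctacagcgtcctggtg
Bace1 carries the aspartate-threonine-glycine-serine motif of an aspartic protease.
Bace1, chr9:45852888-45852938, plus strand, exon 2 of 9: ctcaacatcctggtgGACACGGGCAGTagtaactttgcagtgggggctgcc

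The Psen2 motif was found in frame in 216 of the 21617 coding sequences (0.999%) and the Bace1 motif in 176 (0.814%), so neither marks these genes alone. The rest of each locus bears on the counts. Aplp1, Aplp2, Adam10 and Thy1 overlap no other annotated gene. Bace1 shares 975 bases with transcripts of Rnf214 and 630 with Gm49338, Aph1a shares 734 with Gm15429 and 447 with its neighbour Car14, Ncstn shares 196 with its neighbour Copa, and App shares 115 with Gm49227. How reads in such stretches were assigned is not given in the sources used here, so the counts of Bace1, Aph1a, Ncstn and App are uncertain to that extent. The annotated span of Psen2 also holds RP23-226J18.5. How far reads from the human APP transgene were counted at mouse App is not known either.

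Library totals ranged from 42896149 to 57447015 counts. One library went against its label: KI replicate 5 at 10 months held 54206 Xist counts and 1 Ddx3y count, against at most 218 Xist and at least 2382 Ddx3y counts in the other 19, whereas the protocol describes males. Summed markers of tissue around the cortex also differed between libraries. The 7 thalamic markers summed to 118 to 139 CPM (a library-size-scaled count) in 10-month KI, 117 to 147 in 10-month control, 162 to 309 in 3-month KI and 125 to 238 in 3-month control libraries. Shox2, a thalamic transcription factor, reached at least 84 counts in the 5 KI libraries and in control replicates 8 and 10 at 3 months, and at most 7 in every other library. The 10 microglial markers summed to 760 to 1031 CPM in 10-month KI, 647 to 798 in 10-month control, 304 to 354 in 3-month KI and 280 to 344 in 3-month control libraries. The 15 neuronal markers summed to between 13145 and 14841 CPM in all 20 libraries. In these bulk samples fewer cells of a type and less RNA per cell cannot be told apart. The part of cell content, tissue carried over in dissection or the library's sex in the results below was not tested. Values without a library are given in places, but a library can differ in several of these at once, so such values cannot separate them.

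The precursor genes had higher levels than the secretase genes. Levels between genes are given in RPKM, which is CPM divided by the deposited gene length in kilobases, as the mean ± SD of 20 libraries. Thy1, a small surface glycoprotein of neurons, stood highest at 1089 ± 210 RPKM. App followed at 510 ± 33.9, Aplp1 at 343 ± 61.8 and Aplp2 at 164 ± 8.74 RPKM. The secretase genes described lay lower. At the deposited lengths the mean of Aplp2 was 7.64-fold that of Adam10, the highest of them. Adam10 stood at 21.5 ± 2.37, Bace1 at 21.2 ± 0.846, Ncstn (the nicastrin that binds substrates) at 20.3 ± 1.34, Aph1a (a scaffold subunit) at 10.0 ± 0.628 and Psen2 at 2.81 ± 0.327 RPKM.

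Most of this order held library by library. Thy1 exceeded App, App exceeded Aplp1, Aplp1 exceeded Aplp2 and Aplp2 exceeded Adam10 in 20 of 20 libraries. Adam10, Bace1 and Ncstn could not be ordered, since Adam10 exceeded Bace1 in 9 of 20 and Bace1 exceeded Ncstn in 15 of 20. Aph1a lay below Ncstn, and Psen2 below Aph1a, in all 20. The order depends on the gene length used: with the longest annotated transcript App came to 195 RPKM, below Aplp1 at 331, and Ncstn came to 26.7, above Adam10 at 22.96 and Bace1 at 22.2.

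As a share of the summed RPKM of the 3 precursors, App made up 50.9 ± 3.13% in 10-month KI, 50.1 ± 2.29% in 10-month control, 50.2 ± 3.05% in 3-month KI and 50.1 ± 1.52% in 3-month control libraries (SD, n = 5 each). The Aplp1 share was 33.04 ± 2.31%, 33.9 ± 3.67%, 33.02 ± 5.41% and 33.9 ± 2.34% in the same order of groups, and Aplp2 made up the remaining 16.0 to 16.7% on average. These shares differed between groups by less than the spread within a group. They rest on the deposited gene lengths. With the longest annotated transcripts the mean levels were 195 RPKM for App, 331 for Aplp1 and 167 for Aplp2, so App would no longer have the largest share.

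**Figure D1:**
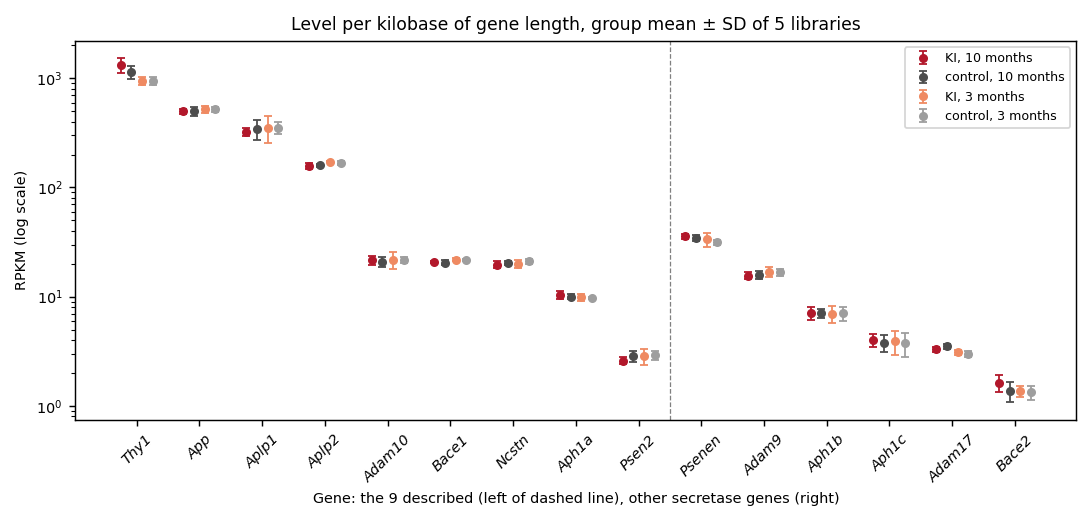
Level in RPKM on a log axis of the 9 genes, left of the dashed line, and of 6 other secretase genes, right of it; points are group means and bars the SD of 5 libraries. The precursors lie above 100 RPKM and the secretase genes between about 1 and 40, and the 10-month means of Thy1 lie above its 3-month means.

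Among the secretase genes outside the 9, Psenen, which encodes PEN2, reached 35.8 ± 1.69 RPKM in 10-month KI, 34.5 ± 2.24 in 10-month control, 33.7 ± 4.93 in 3-month KI and 31.5 ± 1.61 in 3-month control libraries. Bace2, the homologue of Bace1, averaged between 1.33 and 1.63 RPKM in the 4 groups.

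Whether the knockin altered these genes was asked at each age. None of the 9 passed the test between KI and control libraries at 10 months, where 0.0612% of all genes did (12 of 19623), or at 3 months, where 0.0255% did (5). Averaged over the ages the members' count was again 0, against 0.0764% of all genes (15). The test was edgeR's quasi-likelihood test with Benjamini-Hochberg adjustment over all genes at 0.05. Without adjustment 1 of the 9 (Thy1) fell under 0.05 at 10 months, against 1543 of all genes, and 0 at 3 months, against 745. DESeq2 and limma-voom also called 0 of the 9 at either age. The median log2 fold change of the 9 was -0.01 at 10 months and 0.00 at 3 months, against 0.00 and 0.01 over all genes tested.

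App had 1459, 1507, 1530, 1600 and 1688 CPM in 10-month KI libraries, against 1427, 1467, 1568, 1583 and 1789 CPM in 10-month controls. At 3 months App had 1472, 1572, 1628, 1743 and 1753 CPM in KI libraries, against 1519, 1589, 1628, 1689 and 1705 CPM in controls. The groups overlapped almost fully at both ages. The log2 fold change of App was -0.01 ± 0.06 (SE) at 10 months, with a 95% interval of -0.14 to 0.13, and 0.01 ± 0.06 at 3 months, with an interval of -0.13 to 0.14. The interval at 10 months allows changes between 0.905-fold and 1.09-fold.

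Bace1, whose product makes the first amyloidogenic cut, was the most narrowly measured. It had 128, 130, 132, 133 and 137 CPM in 10-month KI libraries, against 120, 131, 132, 134 and 134 CPM in 10-month controls. The groups overlapped, and the log2 fold change was 0.02 ± 0.04 with an interval of -0.07 to 0.11 (edgeR adjusted p = 0.949). At 3 months the log2 fold change of Bace1 was -0.003 ± 0.04, with an interval of -0.09 to 0.09. Adam10, whose product makes the competing cut, had log2 fold changes of 0.04 ± 0.10 at 10 months and 0.01 ± 0.10 at 3 months, and its interval at 10 months ran from -0.16 to 0.25.

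The γ-secretase genes lay on either side of 0. Psen2 had 9.93, 11.1, 11.4, 11.9 and 12.0 CPM in 10-month KI libraries, against 10.7, 11.8, 12.1, 12.9 and 14.3 CPM in 10-month controls. Its groups overlapped, with the lowest value in a KI and the highest in a control library, and the log2 fold change was -0.13 ± 0.11, with an interval of -0.35 to 0.09 (edgeR adjusted p = 0.821). Ncstn had a log2 fold change of -0.07 ± 0.06 at 10 months and of -0.07 ± 0.06 at 3 months, and Aph1a of 0.06 ± 0.06 and 0.01 ± 0.06. The widest intervals belonged to Aplp1, a mostly neuronal paralogue: -0.42 to 0.25 at 10 months and -0.34 to 0.33 at 3 months.

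Thy1 had the largest difference between the genotypes at 10 months. It had 2051, 2148, 2165, 2248 and 2934 CPM in 10-month KI libraries, against 1614, 1839, 2048, 2106 and 2297 CPM in 10-month controls. Of the KI libraries 4 lay within the upper part of the control range and 1, KI replicate 5, lay above it. The log2 fold change was 0.22 ± 0.10 (unadjusted p = 0.0381, edgeR adjusted p = 0.614), and without KI replicate 5 it was 0.12 ± 0.09 (adjusted p = 0.778). At 3 months the Thy1 groups overlapped and the log2 fold change was -0.003 ± 0.10.

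**Figure D2:**
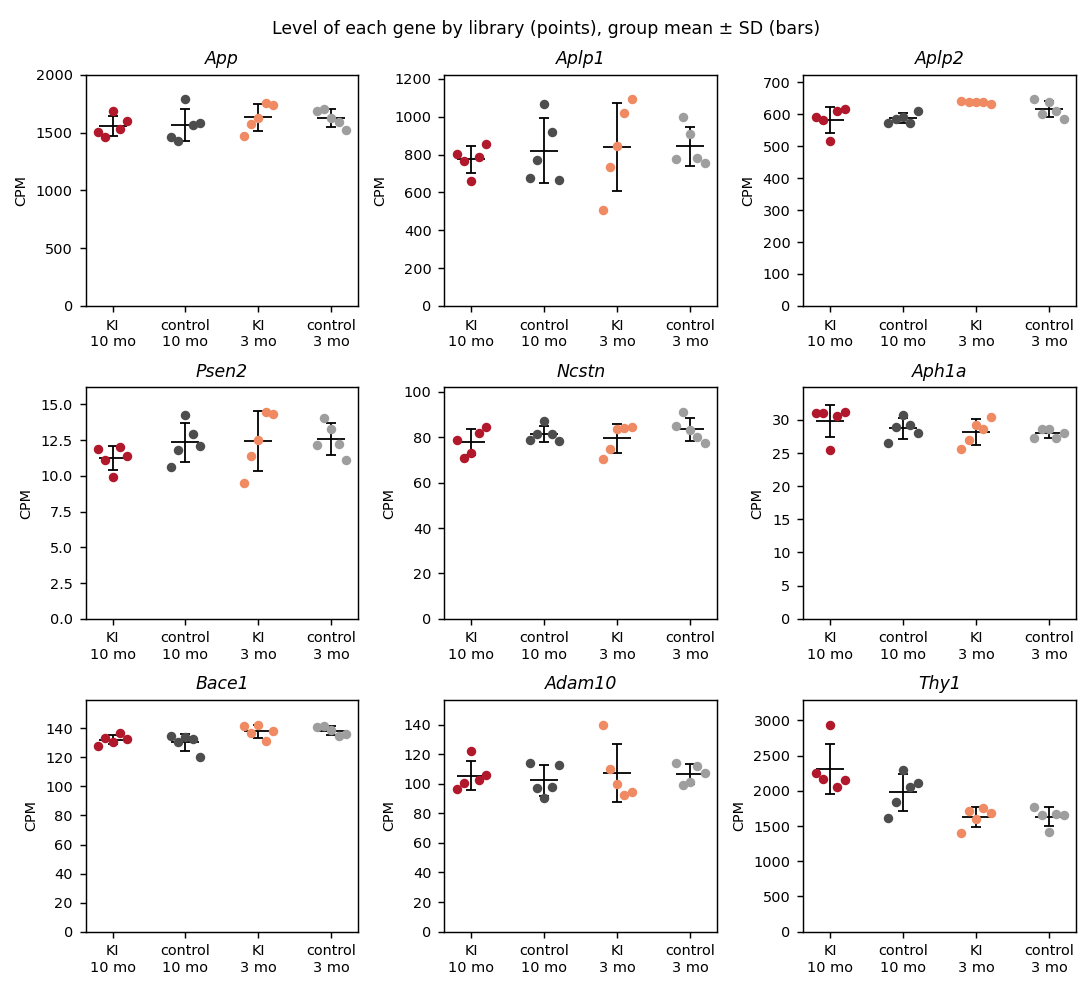
CPM of each of the 9 genes in every library (points), with the mean ± SD of the 5 libraries of a group (bars); each panel has its own axis from 0. Thy1 lies highest in 10-month KI libraries, with KI replicate 5 at 2934 CPM apart from the rest, Aplp1 spreads most within groups, and Bace1 least.

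Age from 3 to 10 months, a period in which plaques spread in 5xFAD mice, was compared within each genotype. Thy1 rose in KI mice and was the only one of the 9 to pass the test there, where 8.06% of all genes did (1582). In controls 0 of the 9 passed edgeR's test, against 4.07% of all genes (799). Without adjustment 1 of the 9, again Thy1, had an edgeR p under 0.05, against 2662 of all genes. There limma-voom called Thy1 (adjusted p = 0.0422) and DESeq2 called 0 of the 9. Averaged over the genotypes Thy1 was again the 1 member called, against 12.1% of all genes (2383 genes): 8.19% of all genes were higher and 3.95% lower at 10 months. A share of 1 in 9 lies near this background.

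Thy1 averaged 2309 ± 356 CPM in 10-month KI libraries and 1631 ± 137 CPM in 3-month KI libraries (SD, n = 5 each). The 3-month KI libraries had 1404, 1606, 1682, 1710 and 1751 CPM, so that every 10-month KI library lay above every 3-month one. The log2 fold change was 0.50 ± 0.10 (1.42-fold, edgeR adjusted p = 0.00242). In controls Thy1 averaged 1981 ± 262 CPM at 10 months and 1634 ± 134 CPM at 3 months, when the libraries had 1413, 1652, 1658, 1670 and 1778 CPM. The control groups overlapped through 1 library, replicate 6 at 10 months with 1614 CPM, and the log2 fold change was 0.28 ± 0.10 (1.21-fold, adjusted p = 0.164). The share of all genes whose age groups do not overlap is not given, so here and below a lack of overlap only describes the libraries.

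The Thy1 difference with age was not shown to differ between the genotypes. The interaction was 0.22 ± 0.14 on the log2 scale, with an interval of -0.07 to 0.52 (edgeR adjusted p = 0.999), and no gene in the table passed the test for an interaction (0 of 19623, 0%, against 883 at an unadjusted p under 0.05; DESeq2 called 4 and limma-voom 3). Averaged over both genotypes Thy1 was 0.39 ± 0.07 higher at 10 months (1.31-fold, adjusted p = 0.000569). Without KI replicate 5 at 10 months the KI difference was 0.40 ± 0.09 (adjusted p = 0.00596) and the interaction 0.12. Leaving out in addition KI replicate 3 at 3 months, the library with the lowest Thy1, gave 0.35 ± 0.08 in KI (adjusted p = 0.0125) and 0.29 ± 0.08 in control (adjusted p = 0.0272), and the interaction was then 0.06.

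Markers of cell types and of thalamus were also compared between the ages, and their association with Thy1 was not tested. The summed microglial markers were higher at 10 months, where 10 of 10 genes passed the test averaged over the genotypes, against 8.19% of all genes higher and 3.95% lower. Of the 7 astrocyte markers 3 were higher and 0 lower: Gfap at 2.31 ± 0.10, Aldoc at 0.32 ± 0.06 and Slc1a3 at 0.12 ± 0.04 (adjusted p = 6.83e-13, 0.000827 and 0.042). They summed to 6053 to 7087 CPM in 10-month KI, 5904 to 6856 in 10-month control, 4837 to 6284 in 3-month KI and 5174 to 5457 in 3-month control libraries. Of the neuronal markers 1 of 15 was lower (Gad1) and 0 were higher. Of the 7 thalamic markers 6 were lower at 10 months averaged over the genotypes, against 3.95% of all genes. Within the genotypes 6 were lower in KI, against 8.06% of all genes called, and 1 in controls, against 4.07% called. Leaving out control replicates 8 and 10 at 3 months, which held Shox2, gave a Thy1 difference of 0.22 ± 0.11 in controls (adjusted p = 0.514). The same could not be done for KI mice, since all 5 of the 3-month KI libraries held Shox2. Whether counts at Thy1 include transcripts of the transgenes, which are built on Thy1 sequence, was not tested.

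**Figure D3:**
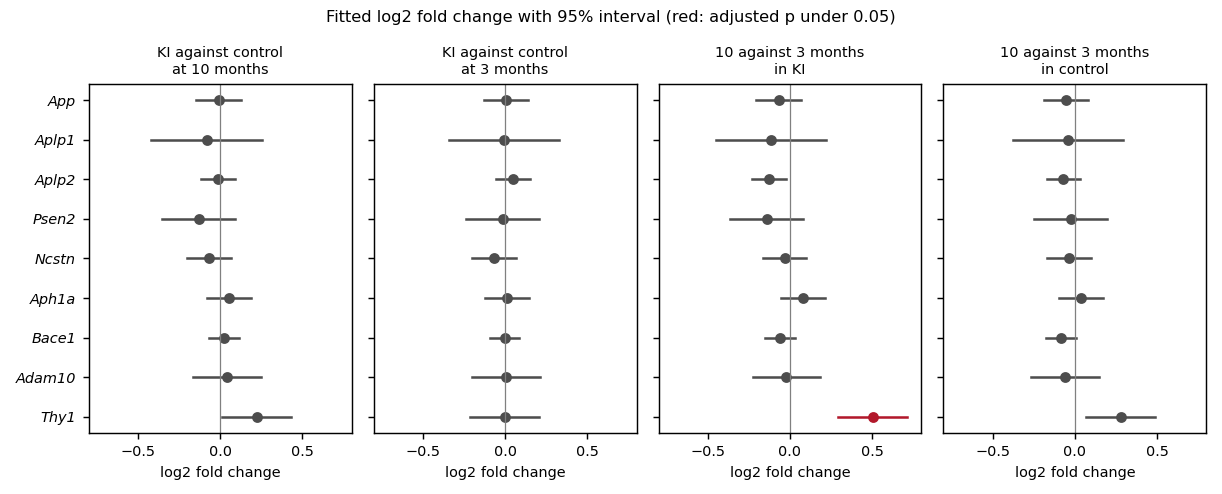
Fitted log2 fold change (point) with its 95% interval (line) for each of the 9 genes in 4 comparisons, KI against control at 10 and 3 months and 10 against 3 months in KI and in control; red marks an adjusted p under 0.05. Only Thy1 between 10 and 3 months in KI mice is red, at 0.50, and the intervals of Aplp1 are the widest.

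The remaining 8 genes differed little with age, and 7 of them had a log2 fold change below 0 averaged over the genotypes. Aplp2 had 515, 581, 592, 610 and 616 CPM in 10-month KI libraries, against 631, 637, 638, 638 and 642 CPM in 3-month KI libraries. These KI groups did not overlap, but how many of all genes had such groups is not given. The difference of -0.13 ± 0.05 did not pass edgeR's test (adjusted p = 0.121). In controls Aplp2 had 574, 574, 586, 593 and 612 CPM at 10 months, against 586, 602, 612, 637 and 647 CPM at 3 months, which overlap (-0.07 ± 0.05, adjusted p = 0.639). Averaged over the genotypes Aplp2 was at -0.10 ± 0.03 (adjusted p = 0.067); with DESeq2's fit the value was -0.11 (adjusted p = 0.00528) and with limma-voom's -0.09 (adjusted p = 0.0187).

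Bace1 was at -0.07 ± 0.03 averaged over the genotypes (edgeR adjusted p = 0.132; 0.0137 with DESeq2 and 0.0322 with limma-voom). It had 131, 137, 138, 142 and 142 CPM in 3-month KI libraries and 135, 136, 139, 141 and 142 CPM in 3-month controls. In KI libraries the ages overlapped. In controls they narrowly did not, with a highest value of 134.48 CPM at 10 months and a lowest of 134.51 CPM at 3 months. The control difference of -0.09 ± 0.04 did not pass edgeR's test (adjusted p = 0.413). Averaged over the genotypes App was at -0.06 ± 0.05 (edgeR adjusted p = 0.438, and 0.0342 with limma-voom). Aplp1 was at -0.08 ± 0.11, Psen2 at -0.08 ± 0.08, Adam10 at -0.04 ± 0.07, Ncstn at -0.03 ± 0.05 and Aph1a at 0.06 ± 0.05, with adjusted p from 0.451 to 0.771. The edgeR log2 fold changes of these 8 genes averaged over the genotypes thus stayed within -0.10 to 0.06, against a median of -0.003 over all genes. Within KI mice they ran from -0.14 for Psen2 to 0.08 for Aph1a, with Aplp1 at -0.12. Within controls they ran from -0.09 for Bace1 to 0.04 for Aph1a.

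The genes differed in how much they varied between libraries of the same group. Aplp1 ran from 506 to 1092 CPM, and its within-group SD of 0.29 on the log2 scale exceeded that of 97.3% of the 333 genes of similar level. Bace1 ran from 120 to 142 CPM, and its SD of 0.05 exceeded that of 1.99% of 3117 such genes. Psen2 and Thy1 each had an SD of 0.17, Adam10 of 0.16, App and Ncstn of 0.10, Aph1a of 0.09 and Aplp2 of 0.06.

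In 3-month KI libraries Aplp1 had 506, 737, 843, 1021 and 1092 CPM. KI replicate 3 had the lowest Aplp1 of all 20 libraries, and also the lowest Psen2 (9.50 CPM) and Ncstn (70.6 CPM) and the highest Adam10 (140 CPM). In 10-month KI libraries Aplp1 had 662, 765, 789, 801 and 855 CPM, and the 662 came from replicate 5, which also had the highest Adam10 of its group, 122 CPM. In controls Aplp1 had 666, 674, 771, 920 and 1066 CPM at 10 months, against 757, 776, 781, 909 and 996 CPM at 3 months.

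Aplp1, Psen2, Ncstn and Aph1a moved together between libraries, and Adam10 moved the other way. Aplp1 and Psen2 lay on the same side of their group medians in 14 of 14 libraries in which neither was the median, Aplp1 and Aph1a in 13 of 13, and Aplp1 and Adam10 in 2 of 14. The same libraries differed in the base composition of what was counted. The GC index of a library, the change in centred log2 CPM for every 10 percentage points of GC in a gene, ranged from -0.48 in KI replicate 3 at 3 months to 0.27 in control replicate 8 at 10 months. Aplp1 lay on the same side of its group median as the index in 15 of 15 libraries, Psen2 in 15 of 15, Ncstn in 13 of 14, Aph1a in 12 of 13 and App in 9 of 13. Adam10 lay on the opposite side in 12 of 13, and Thy1 on the same side in 6 of 12, Bace1 in 7 of 13 and Aplp2 in 7 of 15. The transcripts hold 60.2% GC for Aplp1, 55.8% for Thy1, 55.1% for Psen2, 53.7% for Aph1a, 52.8% for App, 51.6% for Ncstn, 50% for Bace1, 48.4% for Aplp2 and 42.1% for Adam10.

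**Figure D4:**
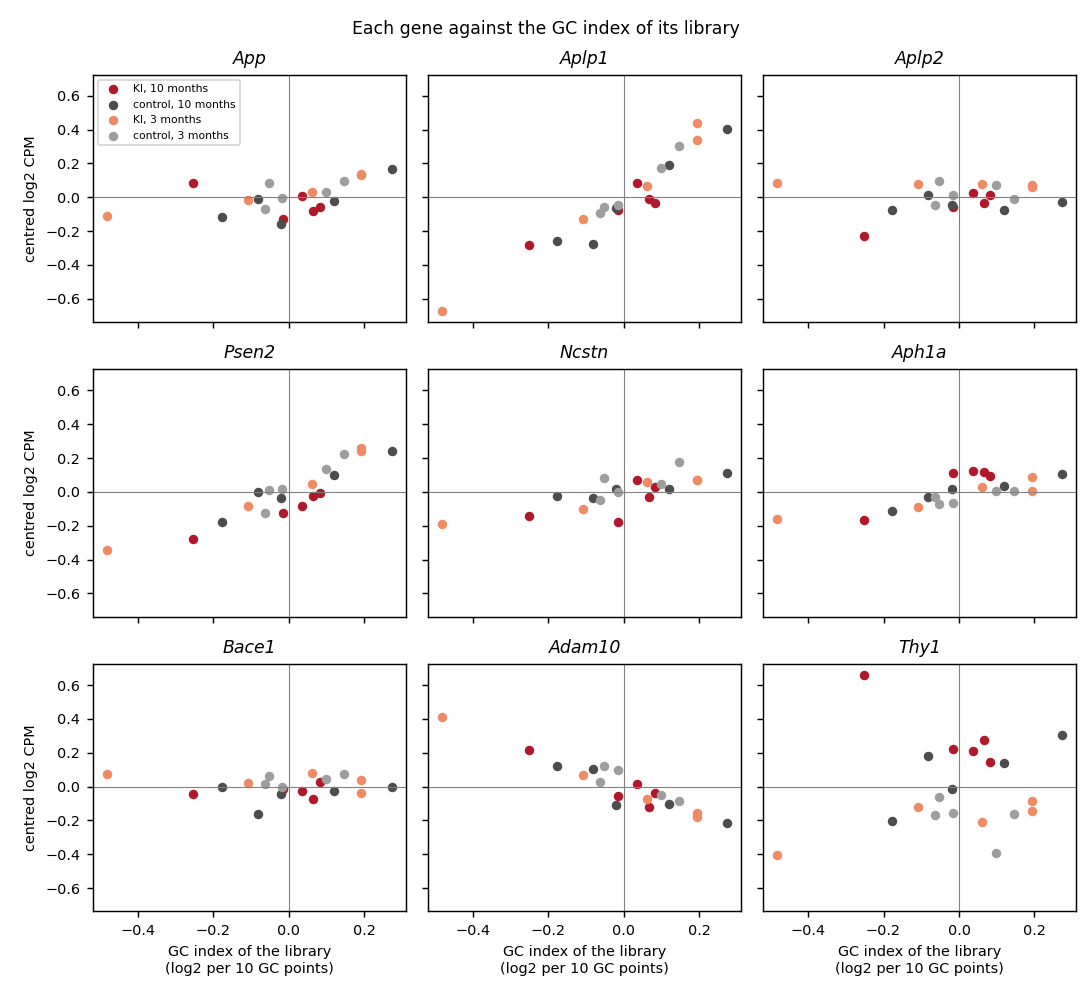
Centred log2 CPM of each of the 9 genes against the GC index of the library, in log2 units per 10 percentage points of GC; each point is a library, coloured by group. Aplp1 and Psen2 lie higher and Adam10 lower in libraries with a higher index, while the Thy1 points follow no such order.

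With the GC index as a covariate the SE of the difference between KI and control libraries at 10 months was 0.05 for Aplp1, against 0.16 without it, 0.05 for Psen2, against 0.11, and 0.03 for Adam10, against 0.10. The log2 fold changes were then -0.001 for Aplp1, -0.09 for Psen2 and 0.01 for Adam10, and none passed the test (edgeR adjusted p = 0.992, 0.308 and 0.917). For Thy1 between 10 and 3 months in KI mice the value with the covariate was 0.50 ± 0.10 (adjusted p = 0.00158). In that fit Aplp2 and Psen2 were also lower at 10 months in KI mice, at -0.13 ± 0.04 (adjusted p = 0.0277) and -0.14 ± 0.05 (adjusted p = 0.0342). The lowest 10-month KI values of both, 515 CPM for Aplp2 and 9.93 CPM for Psen2, came from KI replicate 5, the library with high Xist. Without the covariate, leaving out 1 library at a time gave -0.16 to -0.09 for Aplp2 and -0.22 to -0.08 for Psen2. The covariate fit was not run without that library. The covariate was added after the data were seen, and the number of genes called with age in KI mice was 4082 with it and 1582 without it.

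Likeness was measured as the root mean square difference in centred log2 CPM over the 20 libraries among 10091 genes of at least 10 CPM. For App the nearest were Eif3l, Copg1, Fbxo25, Ywhag and Grb2, at 0.07 each, where App itself deviated from its mean by 0.09. The nearest genes to Thy1 were Rpl23, Ctsb, Mylip, Rpl36a and Rpl31, at 0.12 to 0.13, where Thy1 itself deviated by 0.25. Ctsb encodes cathepsin B, a lysosomal protease, and Rpl23, Rpl36a and Rpl31 encode ribosomal proteins. Their log2 fold changes for 10 against 3 months averaged over the genotypes ran from 0.32 to 0.47, which follows from choosing them on the same libraries for their likeness to Thy1.

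The wider pathway was read from 5 lists. None of the 68 tested genes in them passed edgeR's test between KI and control at 10 months, where 0.0612% of all genes did, so that a count of 0 among 68 does not set them apart. Of the 68, 6 had an unadjusted p under 0.05 with edgeR, against 1543 of all genes tested. DESeq2 and limma-voom called 0 of the 68 as well. The smallest unadjusted p in a list was 0.105 for Bace2 among 6 other secretase genes, 0.0388 for Vps29 among 18 adaptor and sorting genes, 0.0126 for Itm2a among 17 modulators, 0.315 for Mmp14 among 9 genes of amyloid-β degradation and 0.0104 for L1cam among 18 other secretase substrates. The largest of these differences was Bace2 at 0.25 ± 0.15, and L1cam, a neuronal adhesion molecule, was at -0.16 ± 0.06. At 3 months, where 0.0255% of all genes were called by edgeR, edgeR, DESeq2 and limma-voom again called 0 of the 68. Of the 68, 3 had an unadjusted p under 0.05 with edgeR, against 745 of all genes tested.

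The counts with age that follow are averaged over the genotypes unless stated, and stand beside 12.1% of all genes called, 8.19% higher and 3.95% lower at 10 months. With age 1 of the 6 other secretase genes was higher at 10 months averaged over the genotypes: Adam17, an α-secretase and the tumour necrosis factor convertase, at 0.16 ± 0.04 (edgeR adjusted p = 0.0199). Within the genotypes 0 of the 6 were called in KI mice, against 8.06% of all genes, and 1, again Adam17, in controls, against 4.07%. It averaged 23.5 ± 1.36 CPM in 10-month KI and 22.1 ± 1.23 CPM in 3-month KI libraries, and 25.1 ± 1.17 CPM in 10-month control and 21.4 ± 1.46 CPM in 3-month control libraries. Of the 18 adaptor and sorting genes 1 was lower, Sorl1, the receptor that returns APP from endosomes, at -0.17 ± 0.05 (adjusted p = 0.0333), against 3.95% of all genes lower; within each genotype 0 of the 18 were called.

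Among the 17 modulators 2 were higher and 0 lower, a number near the share of 12.1% of all genes called. Cst3, the protease inhibitor cystatin C that is abundant in glia, averaged 728 ± 94.5 CPM in 10-month KI and 411 ± 40.7 CPM in 3-month KI libraries, and 647 ± 93.4 CPM in 10-month control and 420 ± 20.3 CPM in 3-month control libraries. Its groups did not overlap in either genotype, and the averaged difference was 0.72 ± 0.07 (adjusted p = 1.07e-07). Gsap, the γ-secretase activating protein gene, was at 0.44 ± 0.07 (adjusted p = 0.000248). Both were also called within each genotype, and in KI mice Tspan33, a tetraspanin gene, was called lower as well, at -0.32 ± 0.09 (adjusted p = 0.0324).

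Of the 9 genes of amyloid-β degradation 2 were lower at 10 months, Mmp14 at -0.38 ± 0.09 (adjusted p = 0.00536) and Ece1 at -0.28 ± 0.09 (adjusted p = 0.0454), and 0 were higher, against 3.95% of all genes lower and 8.19% higher. Within the genotypes 1 of the 9, Mmp14, was called in KI mice and 0 in controls, against 8.06% and 4.07% of all genes. Mmp14 averaged 7.80 ± 0.50 CPM in 10-month KI and 11.9 ± 2.58 CPM in 3-month KI libraries, against 8.52 ± 0.969 CPM in 10-month control and 9.44 ± 1.22 CPM in 3-month control libraries. Of the 18 other substrates 5 were lower and 0 higher, against 3.95% of all genes lower and 8.19% higher. They were L1cam at -0.23 ± 0.04 (adjusted p = 0.000286), Sez6l at -0.22 ± 0.05, Cdh2 at -0.17 ± 0.05, Cx3cl1 at -0.25 ± 0.08 and Lrp8 at -0.15 ± 0.05. Sez6l is a substrate of BACE1, Cdh2 encodes N-cadherin and Cx3cl1 the neuronal chemokine fractalkine, both cut by ADAM10. The median log2 fold change of the substrates was -0.11, against -0.003 over all genes tested. In KI mice 3 of the 18 were called, against 8.06% of all genes, and in controls 0, against 4.07%; edgeR called no gene in the table for an interaction.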

How the data were processed

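The authors deposited 1 merged table of raw read counts per gene for 20 libraries, with gene names, coordinates and a length per gene. Per the labels' protocols, RNA was extracted from cortex with TRIzol and RNeasy columns with DNase treatment and sequenced on an Illumina HiSeq instrument. Reads were placed on mm10, which the submitters' processing notes name as genome build. Aligner, counter, annotation and strand setting are not given in the sources used here.

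Of 43346 genes, 19623 passed filterByExpr. Counts were tested with edgeR 4.0.16 (R 4.3.3; quasi-likelihood test, TMM scaling, 4 group means, 16 residual degrees of freedom), with Benjamini-Hochberg adjustment over all genes and a threshold of 0.05. DESeq2 1.42.0, limma 3.58.1 voom with quality weights, RLE scaling, no filter, a replicate block, fits on the compared libraries alone and leaving out each library were alternatives, and 3 further fits were added after seeing the data. The code was tested on simulated data. CPM use TMM-scaled totals, and RPKM the deposited length. GC content came from the GENCODE M21 transcript nearest to that length and covered 98.9% of tested genes. Libraries of a group differed by more than counting noise (chi-square per degree of freedom 10.7 to 120), so none repeats another of its group. Libraries of different groups were not compared in this way. Counting error at this depth was smaller than the spread between libraries.

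The 9 genes, the 5 pathway lists and the marker lists were chosen with earlier results of these data known. In the pathway lists the text names the genes called with age and, for genotype, the gene with the smallest p. The closest genes are the 5 with the lowest root mean square difference from App and from Thy1. Apbb3 was not analysed here, and 1 further secretase gene is not reported here.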

Additional observations from a re-analysis of the deposited data

Results flagged for a closer look

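Each of the 36 combinations of a gene and a group was checked for a library far from the other 4, by a gap above 0.71 of the group's range, and chance flags about 1 in 20 such groups. In all, 3 values stood out. Thy1 in KI replicate 5 at 10 months had 2934 CPM, against 2051 to 2248 CPM in the other 4 libraries of the group. Aph1a in the same library had 25.5 CPM, against 30.6 to 31.2 CPM. This is the library with 54206 Xist counts and 1 Ddx3y count. Bace1 in control replicate 10 at 10 months had 120 CPM, against 131 to 134 CPM in the other 4.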

How the results depend on the processing

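Between KI and control 0 of the 9 genes were called at either age, averaged or for the interaction under the alternatives run, which were 29 for each age and 28 for the average and the interaction, where fits on the compared libraries alone do not apply. With age in control mice, where the main count was 0, limma-voom called 1, as did leaving out KI replicate 5 at 10 months and KI replicate 3 at 3 months together, in both cases Thy1. All genes called were 1254 with limma-voom and 1050 without the named libraries, against 799 in the main fit. With age in KI mice the main count was 1, with 1582 of all genes called. DESeq2 called 2 members (2092 of all genes) and the GC index as a covariate 3 (4082). Leaving out 1 library at a time called 1 to 2 members (1117 to 1670 of all genes). With age averaged over the genotypes the main count was 1, with 2383 of all genes called. RLE scaling called 2 members (2463 of all genes), DESeq2 3 (3038), limma-voom 4 (4226) and the GC covariate 3 (5490). Leaving out 1 library at a time called 1 to 2 members (1958 to 2686 of all genes). DESeq2, limma-voom and the GC covariate thus called more of all genes too, so these gains are not read as particular to the members. The genes gained were Aplp2, Bace1, App and Psen2, each lower at 10 months, and the cause was not tested. Thy1 with age in KI mice was called under every alternative, from 0.35 to 0.54 (adjusted p at most 0.0147). No called value changed sign. Of the values of uncalled results, 142 changed sign, in 28 results whose main size was at most 0.13. The changed values reached 0.24, for Aplp1 between KI and control at 3 months with the replicate block, against -0.007 in the main fit. At 10 months the block gave 0.22 for Aplp1, against -0.08, and 0.05 for Psen2, against -0.13. The labels do not say that replicate numbers in the titles pair libraries. Of 18 same-numbered pairs 4 had deviations correlated above 0.1 (range -0.54 to 0.40). Differently numbered pairs were not compared, so these correlations cannot decide whether libraries were paired. With the replicate block the members called were 0 for KI against control at 10 months and 1 with age in KI mice, as without it, but all genes called were 4 against 12 in the first and 1192 against 1582 in the second. Over all genes, KI against control at 10 months gave 59 calls with DESeq2, 75 with limma-voom and 86 with the GC covariate, against 12. The spread of Aplp1 limits its comparison most, with a 95% interval of -0.42 to 0.25 between KI and control at 10 months.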
